A study of Mus musculus with 16 samples.

Results

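Ets1, Runx1, Runx3 and Bcl11b encode 4 transcription factors of the T cell lineage, and the open chromatin around them was examined in regulatory T cells (Treg cells). The members were the regions of a deposited list of open chromatin that overlapped 1 of 4 fixed windows of the mm9 mouse genome: chr9:32400000-32620000 for Ets1, chr16:92550000-92880000 for Runx1, chr4:134630000-134790000 for Runx3 and chr12:109110000-109290000 for Bcl11b. The windows were set by position and not by a measured value. They held 161 of the 75363 regions, with 52 in the Ets1 window, 45 in the Runx1 window, 26 in the Runx3 window and 38 in the Bcl11b window.

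The list came from ATAC-seq, which cuts and tags accessible DNA with a transposase, on sorted CD4+CD25+ Treg cells of C57BL/6 mice. The 16 samples came from 8 mice and formed 8 groups of 2. The tissue groups were VAT (visceral fat, taken from the epididymal depot), Muscle (skeletal muscle of the hindlimb after injury) and a pair from the lamina propria of the colon, Colon_Nrp1p and Colon_Nrp1n, titled after the receptor Nrp1. The remaining 4 groups were the spleens of the same animals (Spl_wVAT, Spl_wMus, Spl_wCol_Nrp1p and Spl_wCol_Nrp1n). No further allele or agent is named for any group, and the sources used here give neither age nor the kind of muscle injury. CD25 also marks activated conventional T cells, and the sorted cells could not be checked against marker genes, because the list holds positions only. For the same reason tissue and spleen could not be compared, no value has a replicate error, and the read depth behind a region is unknown.

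ETS1 is an ETS-family factor that binds sites with a GGAA core, takes part in the development of several lymphocyte lineages and acts at many T cell enhancers, among them elements of Foxp3. RUNX1 and RUNX3 share the Runt DNA-binding domain, pair with the common partner CBFβ and recognise TGTGGT. RUNX1 also binds FOXP3, the defining factor of Treg cells, and RUNX3 is best known for silencing Cd4 in cytotoxic T cells. BCL11B is a zinc-finger protein that commits thymic progenitors to the T lineage and is needed later for Treg cell function. Genes of this kind are often surrounded by many enhancers, and most accessible regions of a cell are enhancers or promoters.

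A genome sequence of mm9 was not used here, so the members are given by position. A short sequence is shown because it carries the motif bound by the factors themselves. RefSeq promoters of build GRCm38.p6, each 250 bases before to 50 bases after a start, were matched for Runx1 (2 promoters), Runx3 (2) and Bcl11b (1); Ets1 was not matched. The upstream promoters of Runx1 and Runx3 share an unbroken run of 18 bases with a pair of RUNX motifs read on the opposite strand. The stretches, 5′ to 3′ on the strand of the gene, with each ACCACA (the reverse complement of TGTGGT) in capitals, are as follows.
Runx1: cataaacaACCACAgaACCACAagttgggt
Runx3: ccctcaACCACAgaACCACAaggccaggcc
The shared run begins at base 26 after the start in Runx1 (counting the start itself as 0) and at base -136 in Runx3. Of 32851 promoters in the table, 4 hold the whole run: those of Runx1, Runx3 and Runx2, and, on the other strand, that of Gm16225, which overlaps the Runx3 promoter. Searched on both strands, TGTGGT occurred at least once in 16.8% of all promoters and 2 or more times in 1.81%. The downstream promoters of Runx1 and Runx3 and the Bcl11b promoter had none. GGAA, also on both strands, was found in 96.0% of all promoters, and so separates little. The downstream promoters were rich in CpG, with 35 CpG dinucleotides in Runx1 and 45 in Runx3 against 2 and 8 in the upstream promoters and a median of 7 over the table. Whether an accessible region lies on any of these promoters was not determined, since the builds differ. The motif search was chosen after the sequences had been seen.

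All 4 windows were far richer in accessible regions than the list as a whole. The Ets1 window had 2.36 regions per 10 kb, the Bcl11b window 2.11, the Runx3 window 1.625 and the Runx1 window 1.36. Over chromosomes 1 to 19 and X, taken to the end of the last region on each, the list had 0.286 per 10 kb. The windows thus stood 8.27 times (Ets1), 7.38 times (Bcl11b), 5.68 times (Runx3) and 4.77 times (Runx1) above it. Against the density of their own chromosomes the ratios were 6.85, 7.68, 5.70 and 4.72 in the same order. Together the windows span 0.0338% of that length and hold 0.214% of the regions. Regions covered 4.91% of the bases of the Ets1 window, 3.97% of the Bcl11b window, 3.42% of the Runx3 window and 2.93% of the Runx1 window, against 0.577% for the list.

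Each window was then set against all non-overlapping tiles of its own length, with tiles that hold no region included. Of 11967 tiles of 220 kb, 12 (0.100%) held at least the 52 regions of the Ets1 window. For the 38 regions of the Bcl11b window the share was 0.308% of 14633 tiles of 180 kb, and for the 26 of the Runx3 window it was 1.96% of 16462 tiles of 160 kb. The Runx1 window, with 45 regions, was matched or passed by 2.29% of 7975 tiles of 330 kb. The tiles had medians of 1 region (3 at the length of the Runx1 window). Many were empty, as were 5323 of those of 220 kb. Among tiles with a region the medians were 9, 7, 7 and 12 for the Ets1, Bcl11b, Runx3 and Runx1 lengths. Over all tiles, 95% held at most 26, 22, 20 and 37 regions in the same order. All 4 windows were therefore above the 95th percentile of tiles of equal length. These shares describe the layout of 1 list and are not p-values, and regions of a locus are not replicates of a condition.

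**Figure D1:**
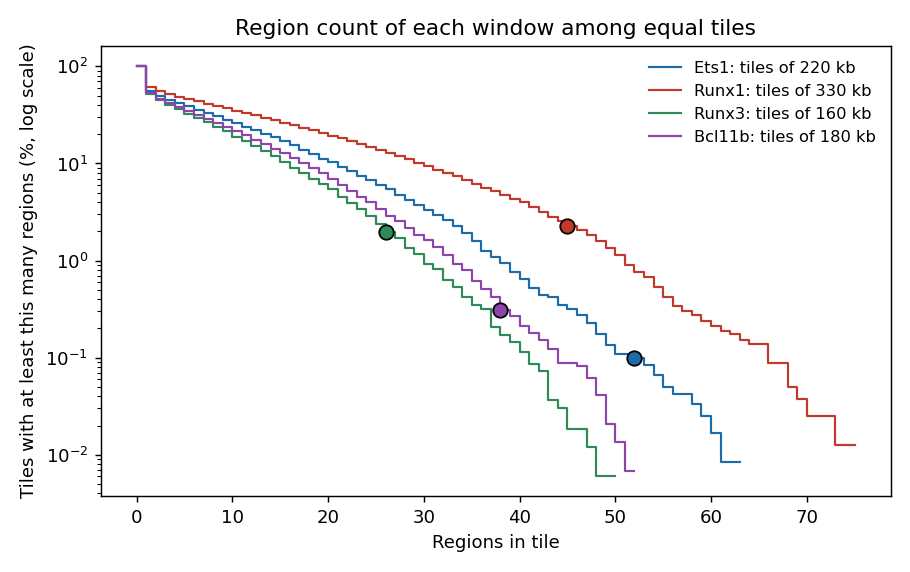
Percent of genome tiles (vertical axis, log scale) that hold at least the number of regions on the horizontal axis, with 1 line for each window length. Filled circles mark the windows: Ets1 at 52 regions and 0.100%, Bcl11b at 38 and 0.308%, Runx3 at 26 and 1.96%, Runx1 at 45 and 2.29%.

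The order of the windows by mean density kept its ends, but not its middle, under other ways of counting. The Ets1 window was 1.73 times as dense as the Runx1 window, and these stayed first and last in all 6 other ways of counting. Counting regions by their centres, which is among these ways, left every density unchanged. The last place of the Runx1 window rested on a small margin, as the Runx3 window was 1.19 times as dense. Bcl11b and Runx3 differed by 1.3 times, and their order turned when each edge was moved 20 kb outward (1.77 and 1.8 regions per 10 kb) and among regions wider than 150 bp (1.61 and 1.625). Because the windows reach different distances beyond the genes, their mean density depends on the choice of edges. On GRCm38.p6, Runx1 spans 225 kb, Ets1 122 kb, Bcl11b 93.7 kb and Runx3 57.3 kb, so each window is longer than its gene. The nearest protein-coding neighbours in that table were Fli1 and Kirrel3 beside Ets1, Clic6 and Setd4 beside Runx1, Syf2 and Clic4 beside Runx3, and Gm52008 and Setd3 beside Bcl11b. Clic4 lies 36.0 kb and Clic6 60.2 kb away, so a window may also take in part of a neighbour.

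Stretches of the same length on both sides separated the loci further. The Runx1 window had 45 regions between flanks of 11 and 13, which is 4.09 and 3.46 times as many. The Bcl11b window had 38 between flanks of 18 and 9, or 2.11 and 4.22 times as many. The Ets1 window lay in a generally rich stretch, with 35 regions before it and 32 after it against its own 52. The Runx3 window, with 18 and 17 around its 26, had similar ratios to its flanks (1.44 and 1.53, against 1.49 and 1.63 for Ets1). Its flanks were less dense than those of Ets1, at 1.125 and 1.06 regions per 10 kb against 1.59 and 1.45. The flank of Ets1 with fewer regions, at 1.45 per 10 kb, was thus itself denser than the whole Runx1 window.

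Within the windows the regions were arranged differently, as the map of regions by distance from the window start shows. In the Ets1 window the regions formed a pair of long blocks when neighbours less than 12.5 kb apart were linked. The first, chr9:32416511-32485567, held 20 regions in 69.1 kb. The second, chr9:32500517-32573918, held 29 regions in 73.4 kb, or 3.95 per 10 kb, and the blocks were separated by 14949 bp without a region. In the whole list 210 linked clusters had 20 or more regions, and 61 had 29 or more. Of 22 bins of 10 kb, 19 held a region. The fullest bins, chr9:32510001-32520000 and chr9:32530001-32540000, held 6 each. The first region of the window was chr9:32401943-32402130 and the last chr9:32605845-32606066.

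The Bcl11b window had a single block. It ran over chr12:109146946-109242448 and held 34 of the 38 regions in 95.5 kb, or 3.56 per 10 kb. In the whole list 22 linked clusters, this one included, had 34 or more regions, out of 1193 with at least 10. Outside it lay only chr12:109111616-109111767, the pair within chr12:109261129-109261749 and chr12:109279884-109280034, behind stretches of 35178, 18680 and 18134 bp without a region. The fullest bin, chr12:109200001-109210000, held 6 regions.

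The Runx1 window, the sparsest on average, combined a dense block with the longest empty stretches of the 4. The block chr16:92744063-92826776 held 29 of 45 regions in 82.7 kb, at 3.51 per 10 kb. That local density was close to the value of the Bcl11b block and between those of both Ets1 blocks (2.90 and 3.95). Linked clusters of 29 or more regions numbered 61 in the whole list. Elsewhere in the window, stretches of 44707, 42559 and 36097 bp had no region, and 15 of its 33 bins of 10 kb were empty. Beyond the midpoint of the window lay 34 regions, and before it 11. The mean of this window thus averages over a dense block and long empty stretches. Linking leaves out gaps of 12.5 kb or more, so a block tends to be denser than its window by construction.

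The Runx3 window had no block of that size. The largest linked clusters that lay wholly inside it held 8 regions each, at chr4:134654461-134685001 and chr4:134706433-134716386. The second of them was compact, with 8 regions in 9.95 kb. In the whole list 1874 linked clusters had 8 or more regions. Linked clusters at both edges ran out of the window, so 2 of 6 and 4 of 10 of their regions were counted in it. The regions were split 14 and 12 around its midpoint, and the longest stretch without a region was 21431 bp. In the densest 100 kb of each window there were 35 regions for Ets1, 34 for Bcl11b, 29 for Runx1 and 19 for Runx3. This measure was added after the data had been seen. It uses 1 length, but it is a maximum, and a longer window offers more places for it. Its background over the list was not computed.

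**Figure D2:**
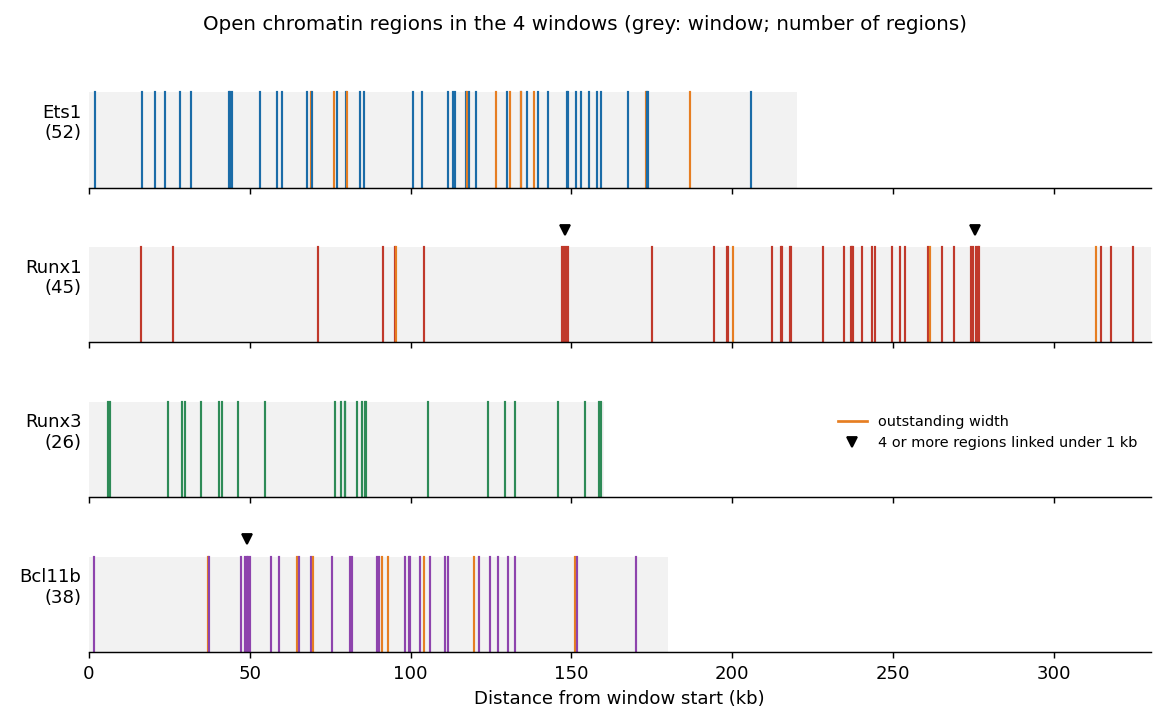
Each vertical line is 1 open chromatin region by distance from the window start (horizontal axis, kb), at no less than the line width, and grey marks the window (52, 45, 26 and 38 regions from top to bottom). Orange lines are regions with 1 of 12 outstanding widths, and triangles mark groups of 4 or more regions with gaps under 1 kb, of which the Runx1 window has 2 and the Bcl11b window 1.

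Bins of 10 kb with 5 or more regions numbered 3 in the Ets1 window, 2 in the Runx1 window, 2 in the Bcl11b window and 0 in the Runx3 window. That is 7 of 89 bins, or 7.87%, whereas 0.522% of the bins over the list reached that number. Empty bins are included, and only 15.6% of the bins over the list held any region. A surplus of full bins follows in part from the high density of the windows, so it is not separate support for the counts. The highest count in any bin of the list was 9.

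The median gap was shorter in each window than over the list. Between neighbouring regions it was 1879 bp in the Bcl11b window, 2383 bp in the Ets1 window, 2630.5 bp in the Runx1 window and 3986 bp in the Runx3 window, against 5200.5 bp for the list. The 95% intervals of these medians, from binomial ranks and with gaps taken as independent, were 946 to 3553, 1265 to 3352, 1233 to 3765 and 958 to 5492 bp. They overlapped one another, and that of Runx3 alone included the median of the list. The value for Bcl11b rose by over 1.5 times, to between 3006 and 3024 bp, when regions under 500 bp apart were merged, when only regions wider than 150 bp were kept and when regions of the 12 outstanding widths were left out. In the last 2 of these settings it was no longer the shortest, with 2896 bp for Ets1 and 2841 bp for Runx1. Short gaps follow in part from a high density, so this is not separate support for the counts. Gaps that cross a window edge were also left out, and no gap can be longer than its window, while gaps of the list reach 11318336 bp.

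Measured by the gap, neighbours less than 500 bp apart were about as frequent as elsewhere. They made up 11 of 51 pairs in the Ets1 window (21.6%, exact binomial 95% interval 11.3 to 35.3%) and 11 of 44 in the Runx1 window (25%, 13.2 to 40.3%). In the Bcl11b window they were 9 of 37 (24.3%, 11.8 to 41.2%) and in the Runx3 window 4 of 25 (16%, 4.54 to 36.1%). The list had 22.2%, inside all 4 intervals, so no difference was detectable with these numbers of pairs. The intervals cover counting error only. Gaps from 500 bp to 12.5 kb made up 45.9% of pairs over the list. In the Ets1 window they were 70.6% (56.2 to 82.5%) and in the Bcl11b window 67.6% (50.2 to 82.0%), with both intervals above the list. The shares in the Runx3 window, 64.0% (42.5 to 82.0%), and in the Runx1 window, 61.4% (45.5 to 75.6%), were also higher, but their intervals included the value of the list. This band was not among the planned measures, and the intervals take gaps as independent. A surplus in the band follows in part from the high density of the windows, so it is not separate support for the counts. Leaving out gaps that cross a window edge also trims long gaps, which can raise this share and lower the upper quartile. Among gaps of 500 bp or more, the medians were 3101.5, 3024, 4649 and 3581 bp for Ets1, Bcl11b, Runx3 and Runx1, and 8835 bp for the list. The lower quartile of the gaps, between 502.75 and 827.5 bp, lay around the 672 bp of the list, while the upper quartile, between 5318 and 8258 bp, was well under its 17644 bp.

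**Figure D3:**
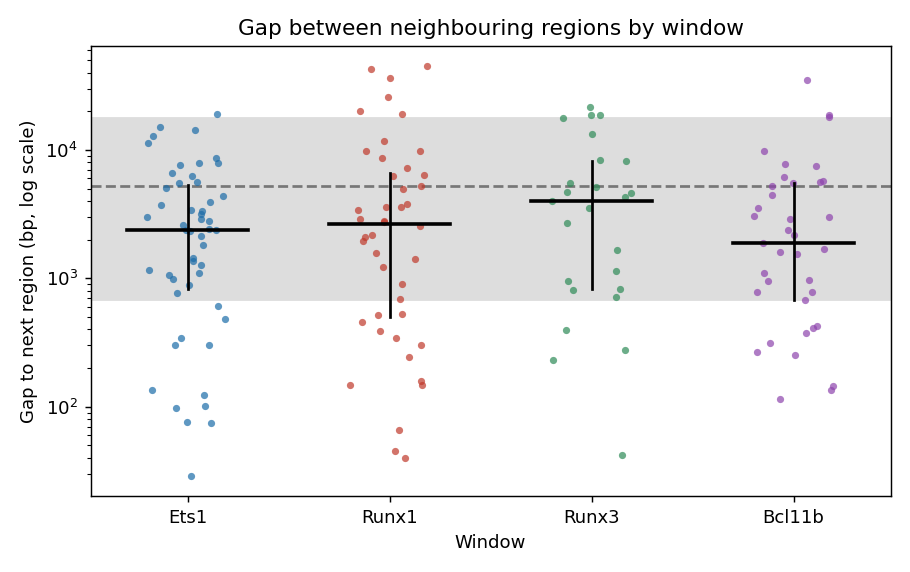
Gap to the next region (vertical axis, base pairs, log scale) for each neighbour pair in the 4 windows; black bars are medians (2383, 2630.5, 3986 and 1879 bp) and vertical lines the quartiles. The dashed line and grey band are the median (5200.5 bp) and quartiles of the whole list; the lower ends of the windows' quartiles fall near the lower edge of the band and the upper ends well below its upper edge.

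Linking regions with gaps under 1 kb turned the 52 regions of the Ets1 window into 37 sites, the 45 of Runx1 into 30, the 26 of Runx3 into 18 and the 38 of Bcl11b into 24. Sites made up 71.2%, 66.7%, 69.2% and 63.2% of the number of regions, and 71.3% over the list. Of the 109 sites 3 had 4 or more regions, or 2.75%, which is the share over the list (2.74% of 53709 sites). In the Runx1 window, chr16:92696936-92699131 held 4 regions of 227, 196, 197 and 202 bp with gaps of 387, 527 and 460 bp. This site stood alone, with 42559 bp free of regions on 1 side and 25719 bp on the other. The second Runx1 site, chr16:92823972-92826776, held 5 regions of 172, 160, 268, 234 and 175 bp and ended the dense block. Its last 2 regions were the closest pair of the window, 40 bp apart. In the Bcl11b window, chr12:109158384-109160104 held 4 regions of 212, 192, 282 and 222 bp in 1721 bp, near the early end of the block. The largest sites of the Ets1 and Runx3 windows had 3 regions. The closest pairs there were 29 bp apart within chr9:32534196-32534558 and 42 bp apart within chr4:134709442-134709823, and the closest pair of the Bcl11b window, within chr12:109146946-109147333, was 115 bp apart.

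Region widths in the windows were near those of the list. The median width was 205.5 bp for Ets1 (quartiles 159.25 and 246 bp), 202 bp for Runx1 (175 and 248 bp), 193 bp for Runx3 (184.75 and 220.5 bp) and 180 bp for Bcl11b (151.25 and 211.75 bp). The list had a median of 191 bp and quartiles of 165 and 227 bp. The 95% intervals of the 4 medians, again from binomial ranks, were 178 to 229, 181 to 231, 187 to 213 and 158 to 203 bp, and all included 191 bp. The widths of Runx3 were the most even, from 156 to 351 bp, and the other windows reached down to 94 bp.

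The widest member was chr9:32479726-32480182 in the Ets1 window, at 457 bp, with a region of 100 bp following 76 bp after it. The next 2 of that window were chr9:32416511-32416848 (338 bp) and chr9:32500517-32500836 (320 bp), the first regions of its blocks. In the Bcl11b window chr12:109166272-109166711, at 440 bp, was far wider than the following pair, chr12:109179031-109179313 (283 bp) and chr12:109159346-109159627 (282 bp). In the Runx1 window chr16:92867539-92867910 measured 372 bp, chr16:92744063-92744412, the first region of the dense block, 350 bp and chr16:92778174-92778498 325 bp. In the Runx3 window chr4:134654461-134654811 measured 351 bp, chr4:134759219-134759541 323 bp and chr4:134714673-134714974 302 bp. Regions of 300 bp or more numbered 5 in the Ets1 window, 4 in the Runx1 window, 3 in the Runx3 window and 1 in the Bcl11b window. Their share over all windows, 8.07%, was near the 6.32% of the list.

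**Figure D4:**
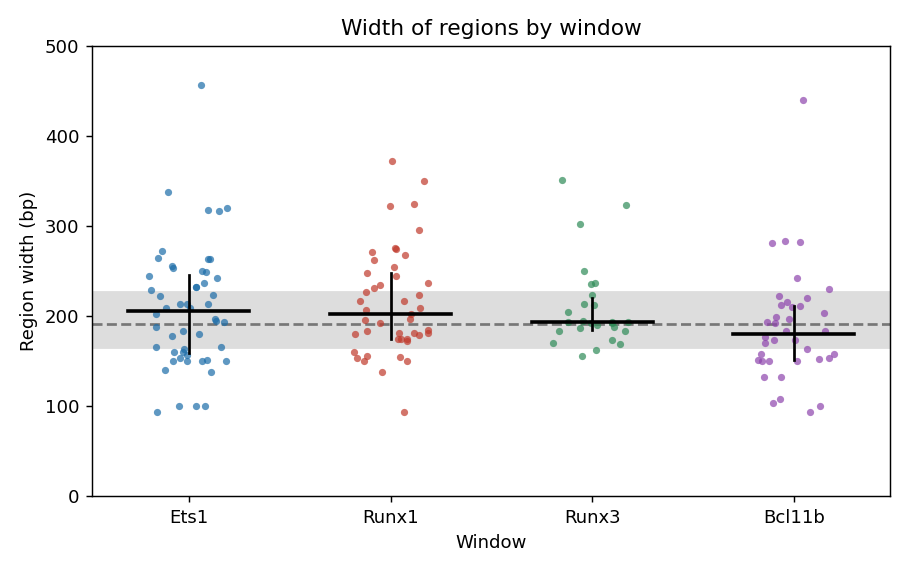
Width of every region (vertical axis, base pairs) in the 4 windows; black bars are medians (205.5, 202, 193 and 180 bp), vertical lines the quartiles, and the dashed line and grey band the median (191 bp) and quartiles of the whole list. The widest points are 457 bp (Ets1) and 440 bp (Bcl11b), and Runx3 has none under 156 bp.

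In the list 12 exact widths, from 94 to 150 bp, occur far more often than the widths next to them. Regions with such a width numbered 10 of 52 in the Ets1 window (19.2%, exact binomial 95% interval 9.63 to 32.5%), 8 of 38 in the Bcl11b window (21.1%, 9.55 to 37.3%) and 4 of 45 in the Runx1 window (8.89%, 2.48 to 21.2%). The Runx3 window had 0 of 26, for which the same interval reaches 13.2% and a limit of 3 counts gives 11.5%. Over the list the share was 14.2%, inside the intervals of Ets1, Bcl11b and Runx1 and just above that of Runx3. Over all windows it was 13.7%. Of these 22 members, 11 had a neighbour within 500 bp, as did 52 of the 139 other members. The same counts over the list were not computed, so no difference is read from these numbers.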

How the data were processed

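ATAC-seq libraries of 10000 sorted cells each were made from 16 samples, per the labels' protocols. The values used were positions: the deposited list gives chromosome, start and end of each region, per the file header, with no score and no column for any sample. Build mm9 and the tools HOMER 4.6, Picard 1.130, Bowtie2 2.2.4, cutadapt 1.8.3 and SAMtools 1.3 are named, with no roles or settings, per the submitters' processing notes. How samples were combined, and which threshold was used, is not given in the sources used here.

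Starts were raised by 1 base to be 1-based. A region belonged to a window if it overlapped it. Densities, widths, gaps (bases between neighbours inside a window) and counts in tiles and 10 kb bins were computed with Python 3.11.15, pandas 2.3.3, numpy 2.4.6 and scipy 1.17.1. The 7 regions on chromosome Y were left out of values for the list. Outstanding widths had a count over 5 times the median of the widths up to 8 bp narrower or wider, with that median taken as 10 or more. No test was run, as no value per sample was at hand. The planned comparison of each tissue with spleen was not run. In each window the first, last and 3 widest regions, the closest pair, the 3 longest gaps, the fullest bin and sites of 4 or more regions were to be named. Members and measures were chosen with earlier results of these data known. The scripts were tested on simulated data.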

Additional observations from a re-analysis of the deposited data

How the results depend on the processing

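No paired analysis was possible because positions are the sole content of the list, and no replicate could be left out for the same reason. Of 96 values recomputed under other settings, 86 stayed within 1.5 times the reported count or share, or within its 95% interval. Some of the 86 had little room to move. The 12 values counted by centres inside the window were unchanged, as were the Runx3 values without outstanding widths, which that window lacks. The Bcl11b median gap rose by over 1.5 times but stayed within its wide interval. Changes in the order of windows were not part of this tally. Merging regions less than 500 bp apart raised the median widths to 232 bp (Ets1), 250 bp (Runx1) and 210 bp (Bcl11b), by construction, and lowered the share of tiles for Runx3 to 1.17%. Over tiles with at least 1 region the shares were 0.181% (Ets1), 3.76% (Runx1), 3.80% (Runx3) and 0.582% (Bcl11b), since empty tiles were dropped. Over tiles of chromosome 9 alone the Ets1 share was 0.178%. That share rests on very few tiles, and the tiles did not leave out the Ets1 locus. Counted by centres less than 500 bp apart, close pairs of the Bcl11b window fell to 10.8%, below the 16.8% of the list. The other windows had 17.6% (Ets1), 15.9% (Runx1) and 12% (Runx3). Widths add to this distance by construction, and why the Bcl11b window fell furthest was not tested. Depth is unknown, so an empty stretch had no call and was not shown to be closed.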
